A study of Mus musculus with 7 samples.

Results

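Heat shock proteins and chaperones are the proteins that fold other proteins, hold them in a foldable state or pass them on for degradation. The set described here was chosen by gene symbol in single-cell RNA libraries of mouse skeletal muscle: symbols that start with Hspa, Hspb, Hspd, Hspe, Hsph, Hsp90 or Dnaj, Cct followed by a number, Bag1 to Bag6, and Cryab. Of 27998 genes in the tables, 89 carried such a symbol and 81 had at least 10 unique molecular identifiers (UMIs) over the 7 libraries and were kept. The other 8 were Dnajc5b, Dnajc6, Cct8l1, Dnajc5g, Dnajb8, Hspb9, Dnajb7 and Dnajc22. The 81 members were 17 genes of the Hsp70, Hsp110 and Hsp90 families, 15 DnaJA and DnaJB and 24 DnaJC co-chaperones, 8 small heat shock proteins, 8 BAG and other Hsp70-binding genes, 7 CCT subunits, and Hspd1 and Hspe1. By knowledge of their products, 11 members act in the endoplasmic reticulum and 9 in mitochondria.

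All cells came from C56BL/6J wild-type mice, as the labels spell the strain, and were profiled with a droplet kit that reads transcript 3′ ends. Injured muscle stem cells (MuSCs), that is satellite cells, were sorted for 2 libraries by flow cytometry 60 h after muscle was injured with 2 µM notexin, a venom phospholipase that destroys myofibres. The labels of the injured libraries name TE-EDL muscles, an abbreviation not expanded here, and give no age. Homeostatic MuSCs (2 libraries) were sorted satellite cells for which the labels name neither an injury nor an age. Primary myoblasts (1 library) were cells of hindlimb muscle of mice 3 months old, cultured for 4 to 5 passages on collagen in HAM's F10 with 2.5 ng/µl bFGF and 10% horse serum. Total muscle (2 libraries) held the live cells of hindlimb muscle, dissociated with enzymes, from mice aged 3 months. The labels do not say that the 2 libraries of a group came from separate animals, so p-values measure only the spread between libraries, which may be technical. There is 1 myoblast library, and its tests assume that it varies like the sorted libraries.

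Hsp70 proteins bind exposed stretches of unfolded clients in a cycle driven by ATP, in which DnaJ co-chaperones deliver clients and start ATP hydrolysis while BAG proteins and Hsp110 help to release the nucleotide. Hsp90 acts later on kinases and hormone receptors, small heat shock proteins hold unfolded clients without ATP, the CCT ring folds actin and tubulin, and Hsp60 with Hsp10 folds proteins in the mitochondrial matrix. A subset of these genes is induced through the transcription factor HSF1, which binds repeats of the letters GAA in alternating orientation. Chaperones of the endoplasmic reticulum are instead induced by the unfolded protein response, partly through the ER stress response element (ERSE). In muscle, small heat shock proteins such as αB-crystallin (Cryab) and the BAG3 co-chaperone are abundant in myofibres, where they protect the contractile filaments. Heat shock genes and immediate early genes are also known to respond to enzymatic dissociation of muscle, and what part that had in the values below was not tested.

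Promoters are shown for examples of both elements, from 5 members that differed several-fold between groups and from Hspe1, a chaperonin gene that did not fall. RefSeq promoters (build GRCm38.p6, 250 bases before to 50 after the start) matched 66 of the 81 members. A 2-unit heat shock element (HSE), TTCNNGAA or GAANNTTC on either strand, lay in 27.3% of members with a promoter (18 genes) and in 17.0% of all 27025 genes with one, each counted once whatever its number of promoters. The 3-unit form, TTCNNGAANNTTC or GAANNTTCNNGAA, which contains the 2-unit form, lay in the promoters of Dnajb6, Hspd1, Hspe1 and Hsph1 and in 0.662% of all genes. The ERSE, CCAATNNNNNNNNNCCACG on either strand, lay in those of Dnajc3, Hsp90b1 and Hspa5 and in 0.137% of all genes. In the lines that follow, 5′ to 3′ on the gene's own strand, capitals mark matches to the 2-unit HSE or, in Hspa5 and Hsp90b1, to the ERSE. Hspa1a is the stress-inducible Hsp70, Hspb1 is Hsp27, Hsph1 is Hsp110, Hspe1 is Hsp10, Hspa5 is BiP and Hsp90b1 is Grp94.
Hspa1a, chr17:34972107-34972406 (-): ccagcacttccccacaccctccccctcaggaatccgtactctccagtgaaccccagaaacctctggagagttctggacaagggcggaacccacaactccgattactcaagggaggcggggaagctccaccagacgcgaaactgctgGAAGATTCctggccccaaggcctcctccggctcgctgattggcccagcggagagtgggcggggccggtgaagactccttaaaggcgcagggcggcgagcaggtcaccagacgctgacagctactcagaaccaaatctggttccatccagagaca
Hspb1, chr5:135887669-135887968 (+): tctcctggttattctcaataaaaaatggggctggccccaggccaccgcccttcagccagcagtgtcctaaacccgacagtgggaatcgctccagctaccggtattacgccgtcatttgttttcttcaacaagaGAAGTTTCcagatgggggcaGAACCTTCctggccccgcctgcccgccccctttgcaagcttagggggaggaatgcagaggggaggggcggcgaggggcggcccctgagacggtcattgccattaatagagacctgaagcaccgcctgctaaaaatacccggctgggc
Hsph1, chr5:149636266-149636565 (-): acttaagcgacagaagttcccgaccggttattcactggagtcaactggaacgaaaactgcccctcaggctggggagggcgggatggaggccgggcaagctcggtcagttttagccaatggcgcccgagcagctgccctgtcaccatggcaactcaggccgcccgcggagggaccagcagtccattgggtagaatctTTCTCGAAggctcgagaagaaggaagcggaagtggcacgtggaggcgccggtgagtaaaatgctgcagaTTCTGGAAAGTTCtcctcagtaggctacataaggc
Hspe1, chr1:55087898-55088197 (+): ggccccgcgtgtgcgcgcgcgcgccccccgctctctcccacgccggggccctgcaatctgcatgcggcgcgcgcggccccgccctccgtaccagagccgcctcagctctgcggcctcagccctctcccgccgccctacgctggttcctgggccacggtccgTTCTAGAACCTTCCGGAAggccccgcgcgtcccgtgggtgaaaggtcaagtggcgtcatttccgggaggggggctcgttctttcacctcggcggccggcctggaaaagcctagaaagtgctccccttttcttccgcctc
Hspa5, chr2:34771840-34772139 (+): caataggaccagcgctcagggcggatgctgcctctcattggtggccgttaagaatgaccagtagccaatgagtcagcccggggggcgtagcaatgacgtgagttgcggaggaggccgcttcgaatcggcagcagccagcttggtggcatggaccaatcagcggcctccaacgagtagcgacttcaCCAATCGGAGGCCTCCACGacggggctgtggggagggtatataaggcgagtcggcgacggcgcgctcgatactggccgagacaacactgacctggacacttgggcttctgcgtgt
Hsp90b1, chr10:86705395-86705694 (-): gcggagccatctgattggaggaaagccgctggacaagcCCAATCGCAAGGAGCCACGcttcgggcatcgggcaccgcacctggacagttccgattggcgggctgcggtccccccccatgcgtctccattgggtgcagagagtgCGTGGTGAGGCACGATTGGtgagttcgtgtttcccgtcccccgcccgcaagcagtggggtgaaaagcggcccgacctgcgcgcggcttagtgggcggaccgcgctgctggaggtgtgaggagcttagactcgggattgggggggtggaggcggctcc
The match in Hspa1a is 1 2-unit element, Hspb1 has 2, Hsph1 has 3, of which 2 overlap and form 1 3-unit element, and Hspe1 has 3 that overlap and form 2 3-unit elements. The window of Hspe1 overlaps that of Hspd1 (Hsp60) on the other strand, at chr1:55087883-55088182, so both genes share these elements. The promoter of Hspa1b differs from that of Hspa1a at 4 of 300 bases. Hspa5 has 1 ERSE and Hsp90b1 has 2. A match describes the letters in this window and does not show that a factor binds there.

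The libraries held between 3319283 and 114382567 UMIs, the largest being the myoblast library. Cells were clustered without the member genes, and clusters named from raised markers of the myogenic list were called myogenic-like. The largest such cluster of the homeostatic, injured and myoblast libraries had no marker of that list among its top 10 genes. These cells made up 92.6% and 85.0% of cells in injured, 96.0% and 97.5% in homeostatic, 99.3% in myoblast and 4.64% and 5.29% in total muscle libraries. Their summed counts ranged between 330347 UMIs (91 cells, total muscle 1) and 113039873 UMIs (4376 cells, myoblasts), and the injured sums rest on 1151 and 1870 cells, against 1502 and 1376 cells in the homeostatic ones. Injured MuSC 1 and 2 shared 253 cell barcodes, while other pairs of libraries shared 1 to 16. Without shared barcodes the injury comparison still called 19 members higher and 38 lower. Summed erythroid markers in myogenic-like cells were 4.01 and 2.58 CPM (counts scaled to a common library total) in injured, 3718 and 890.3 CPM in homeostatic and 27804 and 81.0 CPM in total muscle libraries, and all 5 were lower after injury. Other markers that differed were fibro-adipogenic (summed 1.38 and 2.03 CPM in injured and 197 and 188 CPM in homeostatic libraries, both tested genes of the 6 lower) and mural (28.9 and 35.4 CPM in injured and 114 and 111 CPM in homeostatic libraries, both tested genes of the 6 lower). Tenocyte markers summed to 91.6 and 126 CPM in injured and 12.2 and 23.5 CPM in homeostatic libraries (of 6, 3 tested, 1 higher and 2 lower), and myofibre markers to 139 and 249 CPM and 15.3 and 26.5 CPM (of 6, 4 tested, 3 higher and 1 lower). Macrophage or monocyte markers summed to 9.12 and 4.05 CPM in injured and 8.49 and 5.79 CPM in homeostatic libraries. The part of these markers in the results was not tested. Values for members are scaled CPM of the summed myogenic-like cells unless another scale is named. Those of single clusters and of macrophage- or tenocyte-like cells are CPM without TMM scaling, so their levels are not on the same scale. A lower value in a sum can mean fewer expressing cells or less RNA per cell, which a sum cannot tell apart.

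Injured MuSCs held far less RNA of the stress-inducible and ER chaperones than homeostatic MuSCs, and more of several DnaJC co-chaperones and of 4 small heat shock proteins. Of 75 members tested with edgeR's quasi-likelihood test, 38 were lower in injured MuSCs and 19 were higher at an adjusted p under 0.05. Among all 10639 genes tested 37.3% were lower and 38.4% were higher, so the members' share of falls was above the background and their share of rises below it. The median log2 fold change over members was -0.55, beside 0.03 over all genes. Without TMM scaling the all-gene median moved to -0.27, and 14 members were called higher and 43 lower. The 18 tested members with no call included the ER and mitochondrial genes Dnajb12, Dnaja3 and Dnajc11. The 6 that were too low to test were Cct6b, Dnajb13, Dnajc28, Hspa12b, Hspa1l and Hspb3.

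**Figure D1:**
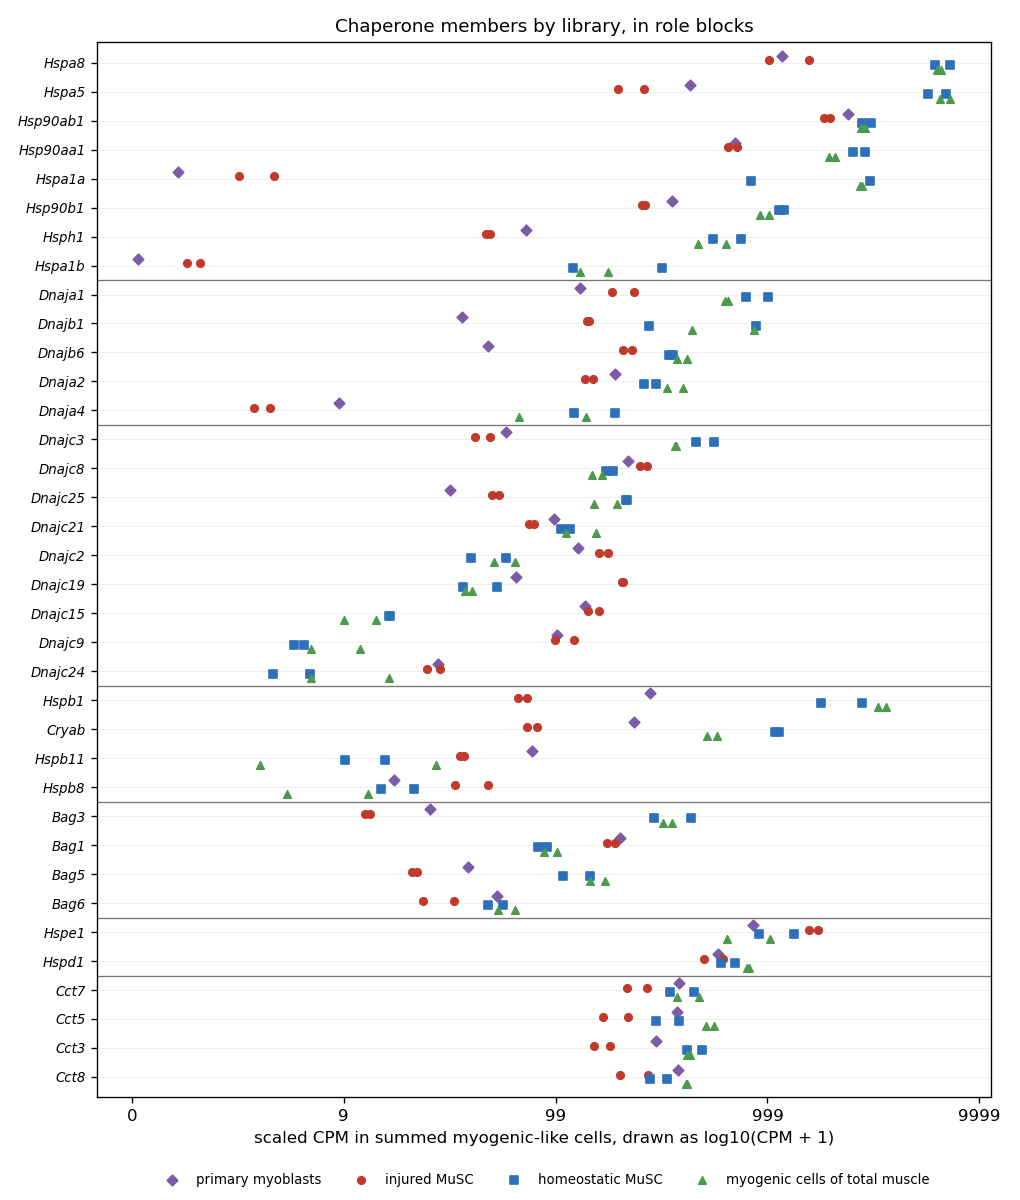
Levels in myogenic-like cells, by role, of the most abundant members, of those with the largest called injury changes, and of Hsph1 and Hsp90b1. Members of the second kind were chosen for their difference between red and blue points. Each point is 1 library, red for injured MuSCs, blue for homeostatic MuSCs, purple for primary myoblasts and green for total muscle; the axis is log10(scaled CPM + 1). Points of one colour lie close together for most members, and red and purple points of Hspa1a, Hspa5, Hspb1 and Bag3 lie far below the blue and green ones.

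The Hsp70, Hsp110 and Hsp90 families fell, with 11 of 15 tested members lower, 1 higher and a median of -2.002 (log2). Hspa1a, the stress-inducible cytosolic Hsp70, had 2.21 and 3.68 CPM in injured MuSC 1 and 2, against 3060.3 and 833 CPM in homeostatic MuSC 1 and 2 (log2 fold change -9.41, SE 0.58, adjusted p 1.5e-09). Both injured libraries were close to no signal, and the 2 homeostatic libraries differed widely from each other. Leaving out homeostatic MuSC 1 gave a log2 fold change of -8.22, and leaving out homeostatic MuSC 2 gave -10.09. Hspa1b, which encodes a nearly identical protein but had no near-identical copy in a search of the transcripts' last bases, had 0.829 and 1.11 CPM in injured and 318 and 120.1 CPM in homeostatic libraries (log2 fold change -7.83, SE 0.50, adjusted p 2.0e-09), and -6.99 without homeostatic MuSC 1. Hspa8, the constitutive Hsc70, was present in all libraries, with 1575 and 1011 CPM in injured and 7303 and 6204 CPM in homeostatic libraries (log2 fold change -2.40, SE 0.18, adjusted p 1.4e-08). It has 8 near-identical copies in the annotation, so its absolute level is uncertain. Hsp90aa1, the inducible cytosolic Hsp90, had 718 and 650.1 CPM in injured and 2897 and 2526 CPM in homeostatic libraries (log2 fold change -2.002, SE 0.14, adjusted p 5.0e-09). Its constitutive paralog Hsp90ab1 moved less, with 1979 and 1857 CPM in injured and 3064 and 2800.4 CPM in homeostatic libraries (log2 fold change -0.63, SE 0.13, adjusted p 3.8e-04). In all of these the injured and homeostatic libraries did not overlap. What share of all genes do the same is not given, here or where overlap is named below.

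Hsph1, the Hsp110 nucleotide exchange factor, had 45.9 and 48.3 CPM in injured and 749 and 550.0 CPM in homeostatic libraries (log2 -3.80). Hspa2, an Hsp70 best known from spermatogenesis, had 2.90 and 1.66 CPM in injured and 30.8 and 28.7 CPM in homeostatic libraries (log2 -3.66), and Hspa4, another Hsp110 relative, fell by 0.78 on the log2 scale. Both genes were lower in each injured library than in each homeostatic one. Hspa14, an Hsp70 relative that sits with a DnaJ partner on ribosomes, was the only member of these families called higher, with 41.3 and 39.2 CPM in injured and 24.1 and 29.9 CPM in homeostatic libraries (log2 0.57, adjusted p 0.013). Its call was lost with DESeq2 and without TMM scaling, where no member of these families was called higher. Hspa9, the mitochondrial Hsp70 mortalin, had 412 and 377 CPM in injured and 438 and 512 CPM in homeostatic libraries and was not called (log2 -0.28, adjusted p 0.082). Hsph1, Hspa2, Hspa4, Hspa14 and Hspa9 were named after their values were seen.

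The ER chaperones fell with them: 8 of 11 tested members were lower, 2 were higher and the median was -2.09 (log2). Hspa5 (BiP), the ER Hsp70 that also restrains the sensors of the unfolded protein response, had 260.2 and 196 CPM in injured and 6927 and 5713 CPM in homeostatic libraries (log2 fold change -4.80, SE 0.18, adjusted p 7.8e-12). Hsp90b1 (Grp94), the ER Hsp90, had 264 and 254 CPM in injured and 1194 and 1137 CPM in homeostatic libraries (log2 fold change -2.18, SE 0.14, adjusted p 1.9e-09). Dnajc3 (p58IPK), an ER DnaJ protein that serves BiP, had 48.1 and 40.5 CPM in injured and 561 and 457 CPM in homeostatic libraries (log2 fold change -3.53, SE 0.17, adjusted p 1.1e-10). These 3 genes, whose promoters carry an ERSE, were each several-fold lower in both injured libraries. The BiP co-chaperones Dnajb9 (ERdj4) and Dnajb11 (ERdj3) changed by -3.16 and -1.52 (log2), with 46.3 and 35.2 CPM and 71.3 and 72.0 CPM in injured and 385 and 341 CPM and 200.1 and 206 CPM in homeostatic libraries. Dnajc25 had 49.3 and 53.2 CPM in injured and 216 and 215 CPM in homeostatic libraries (log2 -2.09), and Dnajc1, an ER membrane DnaJ protein, had 15.9 and 20.4 CPM and 101 and 111 CPM (log2 -2.57). The 2 ER members that were higher were Dnajb14 (log2 1.39), a membrane DnaJ protein of the ER, and Dnajc10 (log2 0.58), a disulfide reductase known as ERdj5. With DESeq2, and also without TMM scaling, only 1 ER member was called higher.

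**Figure D2:**
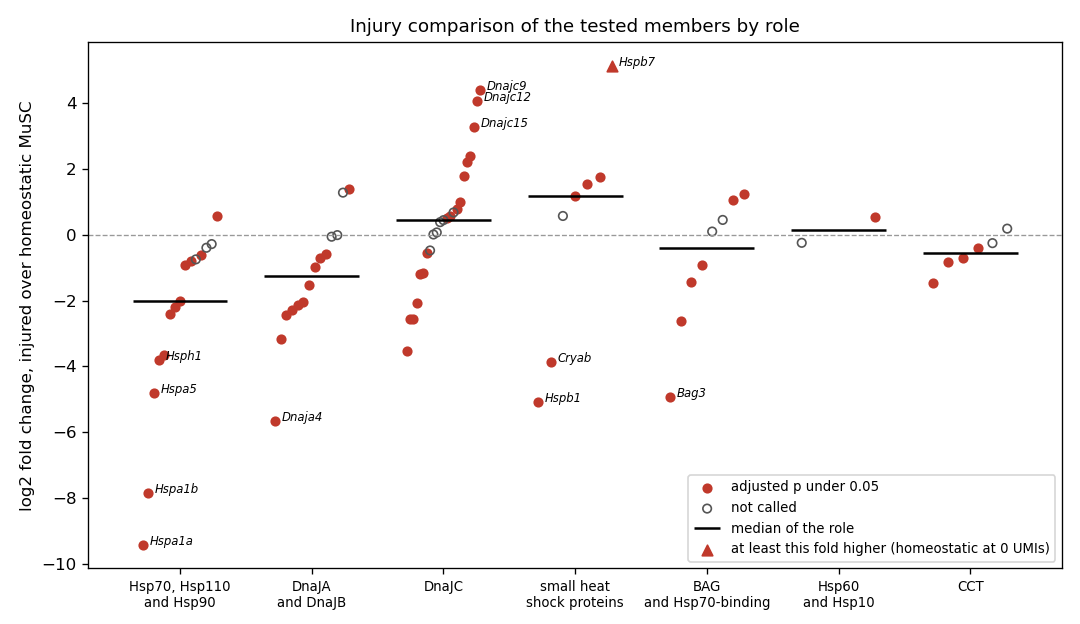
Log2 fold changes of injured over homeostatic MuSCs for every tested member, by role. Roles run along the x axis and the y axis is the log2 fold change; filled points passed an adjusted p under 0.05 in edgeR's quasi-likelihood test, open ones did not, black lines are medians, and the triangle marks Hspb7 at its lower bound because no homeostatic library had a count. Hsp70, Hsp90 and DnaJA and DnaJB members lie mostly below 0 (medians -2.002 and -1.25), while DnaJC members lie on both sides of 0 (median 0.45).

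Among DnaJA and DnaJB co-chaperones, ER members included, 10 of 14 tested members were lower, 1 was higher and the median was -1.25 (log2). Dnajb1 (Hsp40), the main inducible partner of Hsp70, had 143 and 139 CPM in injured and 881 and 276 CPM in homeostatic libraries (log2 fold change -2.05, SE 0.34, adjusted p 6.7e-05). As with Hspa1a, homeostatic MuSC 1 was the high library, and leaving it out gave a log2 fold change of -1.02, while leaving out homeostatic MuSC 2 gave -2.68. Dnaja1, a cytosolic partner of Hsc70, had 234 and 183 CPM in injured and 1001 and 795 CPM in homeostatic libraries (log2 fold change -2.12, SE 0.17, adjusted p 2.0e-08). Dnaja4 had 2.76 and 3.50 CPM in injured and 189 and 122 CPM in homeostatic libraries (log2 fold change -5.66, SE 0.27, adjusted p 8.9e-11), the largest fall of the class. Dnaja2 and Dnajb6 fell by 0.98 and 0.70 on the log2 scale. Dnajb6, which keeps aggregating proteins soluble and has 4 near-identical copies in the annotation, had 228 and 207 CPM in injured and 342 and 356 CPM in homeostatic libraries.

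DnaJC co-chaperones, which carry the J domain in otherwise unlike proteins, split: 10 of 23 tested members were higher (43.5%) and 7 lower (30.4%). These shares stand beside 38.4% and 37.3% of all genes, so the class as a whole was not far from the background. Its median was 0.45 (log2), and without TMM scaling 7 members were higher and 8 lower. Dnajc9, a histone chaperone as well as an Hsp70 partner, had 121 and 98.7 CPM in injured and 4.81 and 5.49 CPM in homeostatic libraries (log2 fold change 4.40, SE 0.23, adjusted p 2.1e-10). Dnajc15, a DnaJ protein of the inner mitochondrial membrane, had 159 and 142 CPM in injured and 15.3 and 15.5 CPM in homeostatic libraries (log2 fold change 3.27, SE 0.18, adjusted p 3.8e-10). Dnajc19, another part of the mitochondrial import machinery, had 205 and 206 CPM in injured and 35.7 and 52.1 CPM in homeostatic libraries (log2 fold change 2.21, SE 0.18, adjusted p 2.7e-08). All 3 were several-fold higher in both injured libraries, although Dnajc9 and Dnajc19 have near-identical copies in the annotation. Dnajc2, the ribosome-associated partner of Hspa14, had 176 and 159.5 CPM in injured and 39.1 and 57.3 CPM in homeostatic libraries (log2 1.79). Dnajc24, known for its part in making diphthamide, a modified residue of a translation factor, had 27.5 and 23.8 CPM in injured and 5.94 and 3.66 CPM in homeostatic libraries (log2 2.39). Dnajc8, a splicing-associated DnaJ protein, was higher by 0.53 (log2), a call lost without TMM scaling (log2 0.23). Dnajc12, an Hsc70 partner that serves aromatic amino acid hydroxylases, had so few homeostatic counts that its ratio was 18.3-fold higher in injured libraries with a counting interval of 4.87 to 154. Dnajc21, which takes part in ribosome assembly, was lower, with 73.7 and 78.5 CPM in injured and 105 and 116 CPM in homeostatic libraries (log2 -0.55).

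Small heat shock proteins divided, with 4 of 7 tested members higher and 2 lower. Abundance is the mean over the groups, which for Hspb1 and Cryab rests mostly on homeostatic and total muscle libraries. Their means in injured MuSCs were 68.6 and 76.2 CPM, beside 39.8 CPM for Hspb8, so their fall is not independent of that ranking. The 2 most abundant fell: Hspb1 (Hsp27), which binds actin filaments and unfolded clients, had 72.0 and 65.2 CPM in injured and 2803 and 1789 CPM in homeostatic libraries (log2 fold change -5.08, SE 0.21, adjusted p 2.6e-11). Cryab, the desmin-binding αB-crystallin, had 72.0 and 80.3 CPM in injured and 1084 and 1127 CPM in homeostatic libraries (log2 fold change -3.88, SE 0.15, adjusted p 1.5e-11). For both genes every injured library lay many-fold below every homeostatic one. Hspb8, the partner of Bag3 in chaperone-assisted autophagy, was higher, with 32.6 and 47.0 CPM in injured and 20.4 and 14.02 CPM in homeostatic libraries (log2 fold change 1.18, SE 0.24, adjusted p 4.2e-04). Hspb11, which is a subunit of the intraflagellar transport complex, had 36.1 and 34.3 CPM in injured and 14.7 and 9.15 CPM in homeostatic libraries (log2 fold change 1.54, SE 0.23, adjusted p 2.8e-05). Hspb2, a muscle small heat shock protein encoded next to Cryab, had 12.02 and 14.6 CPM in injured and 3.68 and 3.96 CPM in homeostatic libraries (log2 1.77). Hspb7, a cardiovascular and muscle member, had 18.8 and 10.7 CPM in injured libraries and no count in either homeostatic library, at least 34.8-fold higher at 3 counts over the homeostatic libraries together. With Hspb7 at that bound the median of the 7 tested members was 1.18 (log2), the same as with its fitted value. Hspb2 and Hspb7 were named after their values were seen.

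Of 8 genes of BAG and other Hsp70-binding proteins, among them exchange factors that release nucleotide from Hsp70, 4 were lower and 2 higher. Bag3, the stress-inducible BAG protein that links Hsp70 to small heat shock proteins and autophagy, had 12.3 and 11.6 CPM in injured and 432 and 290.3 CPM in homeostatic libraries (log2 fold change -4.93, SE 0.22, adjusted p 4.4e-11). Bag5 had 21.3 and 20.1 CPM in injured and 107 and 144 CPM in homeostatic libraries (log2 fold change -2.61, SE 0.18, adjusted p 5.7e-09). Bag1, which couples Hsp70 to the proteasome, went the other way, with 189.6 and 173 CPM in injured and 81.5 and 89.9 CPM in homeostatic libraries (log2 fold change 1.07, SE 0.15, adjusted p 9.7e-06), as did Bag4 (log2 1.23). Bag6, which guides tail-anchored proteins to membranes, had 32.1 and 22.7 CPM in injured and 55.2 and 47.0 CPM in homeostatic libraries (log2 -0.91). In none of these genes did injured and homeostatic libraries overlap, and the share of all genes without overlap is not given.

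The chaperonins moved little by comparison. Of 6 tested CCT subunits 4 were lower and none was higher, with a median of -0.55 (log2) beside 0.03 over all genes. Cct3 had 179 and 151 CPM in injured and 418 and 491 CPM in homeostatic libraries (log2 fold change -1.48, SE 0.15, adjusted p 4.2e-07). Cct5 and Cct7 fell by 0.83 and 0.72 on the log2 scale, and Cct8 fell by 0.39 (adjusted p 0.042). The call of Cct8 was lost with DESeq2, with no filter on low counts, with all cells, and without homeostatic MuSC 2 or injured MuSC 2 (log2 -0.17 without the last). Hspe1 (Hsp10) was higher, with 1739.9 and 1566 CPM in injured and 1329.5 and 914 CPM in homeostatic libraries (log2 fold change 0.54, SE 0.16, adjusted p 0.0073), but the call was lost without homeostatic MuSC 2 (log2 0.28), without TMM scaling (0.25) and in marker-gated cells (0.33). Hspd1 (Hsp60) had 615 and 498 CPM in injured and 705 and 599.7 CPM in homeostatic libraries and was not called (log2 -0.24, adjusted p 0.15), while without homeostatic MuSC 2, without TMM scaling and in marker-gated cells it was called lower (log2 -0.38, -0.54 and -0.41). Hspe1 and Hspd1 share the promoter with 2 3-unit elements printed above, while Hsph1, whose promoter carries 1, changed by -3.80 (log2). Over 8 tested mitochondrial members 3 were higher, none was lower and the median was 0.00 (log2), while without scaling 2 were higher, 3 were lower and the median was -0.30.

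Genes outside the symbol rule gave the surroundings of these changes. Of 28 co-chaperones and stress factors, 13 were higher and 9 lower (median 0.05, log2). Hsf1, the heat shock factor itself, had 26.5 and 25.6 CPM in injured and 29.997 and 28.0 CPM in homeostatic libraries and was not called (log2 -0.17), and its paralog Hsf2 had 165 and 263 CPM and 6.79 and 6.40 CPM (log2 4.99). Among Hsp90 and Hsp70 helpers, Ptges3 (p23), St13 (Hip) and the ubiquitin ligase Stub1 (CHIP) were higher by 1.57, 1.95 and 1.81 (log2), and the adaptor Stip1 (Hop) fell by 1.21. The haem oxygenase gene Hmox1 had 70.6 and 53.2 CPM in injured and 2282 and 2952 CPM in homeostatic libraries, and was many-fold lower in every injured library (log2 -5.41). Of 20 genes of the unfolded protein response 14 were lower, 1 (Trib3, a target of the ATF4 branch) was higher and the median was -1.47. Xbp1, the transcription factor of the IRE1 branch, had 37.6 and 35.6 CPM in injured and 565 and 500.3 CPM in homeostatic libraries (log2 -3.88), whereas Atf4 and Ddit3 were not called (log2 -0.14 and -0.03). Of 23 tested immediate early genes, which respond within minutes to many stimuli, 22 were lower (median -3.04), among them Egr1 (log2 -6.57) and Fos (log2 -3.04). Immediate early genes thus moved with the heat shock genes, and their part in the result was not tested.

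Cell by cell, the inducible Hsp70 was not spread evenly. After each cell was thinned to 1000 UMIs, a UMI of Hspa1a was found in 0.348% (95% interval 0.0948 to 0.887) and 0.161% (95% interval 0.0333 to 0.471) of injured cells, against 40.6% (95% interval 37.8 to 43.4) and 22.0% (95% interval 19.5 to 24.7) of homeostatic cells, with exact binomial intervals that cover counting error only. The shares without thinning were 1.22% and 0.802% in injured and 60.2% and 33.6% in homeostatic libraries. Thinning left out 0 and 10 injured and 300 and 368 homeostatic cells as too shallow. As free RNA in the droplets can give such UMIs, B cells of total muscle, gated on their markers, are the comparison at hand, and 23.2% and 19.9% of them held a UMI of Hspa1a (median depth 2165 and 2161.5 UMIs, against 2287 and 2329.5 UMIs in homeostatic cells). These B cells came from the total muscle libraries and may express Hspa1a themselves, so they cannot measure free RNA in the homeostatic ones. The share in homeostatic MuSC 2 lay between the 2 B cell shares and that of homeostatic MuSC 1 above them. Neither is read as expression in that many cells, and the part of free RNA was not tested. In the thinned homeostatic cells, the 121 and 101 cells with the most Hspa1a, of 1202 and 1008, held 86.5% and 85.9% of its UMIs, and the median cell held none while the highest held 143 and 75 UMIs. For Hspa8, the constitutive gene, as many top cells held 28.8% and 26.7%, and 68.9% and 54.2% of injured and 98.5% and 97.2% of homeostatic cells held a UMI. Few homeostatic cells thus held most UMIs of the inducible Hsp70, while nearly all held a UMI of the constitutive one.

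Most homeostatic UMIs of Hspa1a lay in 1 cluster, although the clustering did not use any member gene. The cluster, which has the immediate early genes Egr1 and Fos among its top 10 genes, held 142 and 56 homeostatic cells (9.45% and 4.07%). It contained 76.0% and 59.4% of all homeostatic Hspa1a UMIs, 62.8% and 40.5% of those of Dnajb1 and 40.9% and 19.4% of those of Hspb1, but 4.60% and 2.56% of those of Hspa5. Within it Hspa1a stood at 27137 and 14509 CPM in homeostatic MuSC 1 and 2, against 804 and 310.2 CPM in the largest homeostatic cluster. Hspb1 stood at 13364 and 10177 CPM against 1899 and 1627 CPM there, and Hspe1 at 4682 and 3607 CPM against 1126 and 911 CPM. The inducible cytosolic members and Hsp10 were thus several-fold higher in the small cluster, whereas Hspa5 was lower there, with 3718 and 4287 CPM against 7749 and 6209 CPM. In total muscle 1 and 2 the same cluster held 8.79% and 9.38% of myogenic-like cells and 91.3% and 80.0% of their Hspa1a UMIs. These shares are a description, since clusters group cells by genes that can move with the members. When the cluster was left out of all libraries, an alternative chosen after seeing the data, the injury comparison still called 19 members higher and 38 lower, with log2 fold changes of -7.67 for Hspa1a, -6.58 for Hspa1b and -0.93 for Dnajb1. The second homeostatic cluster of few UMIs (median 861 and 748 per cell) had 935 and 655 CPM of Hspa1a.

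**Figure D3:**
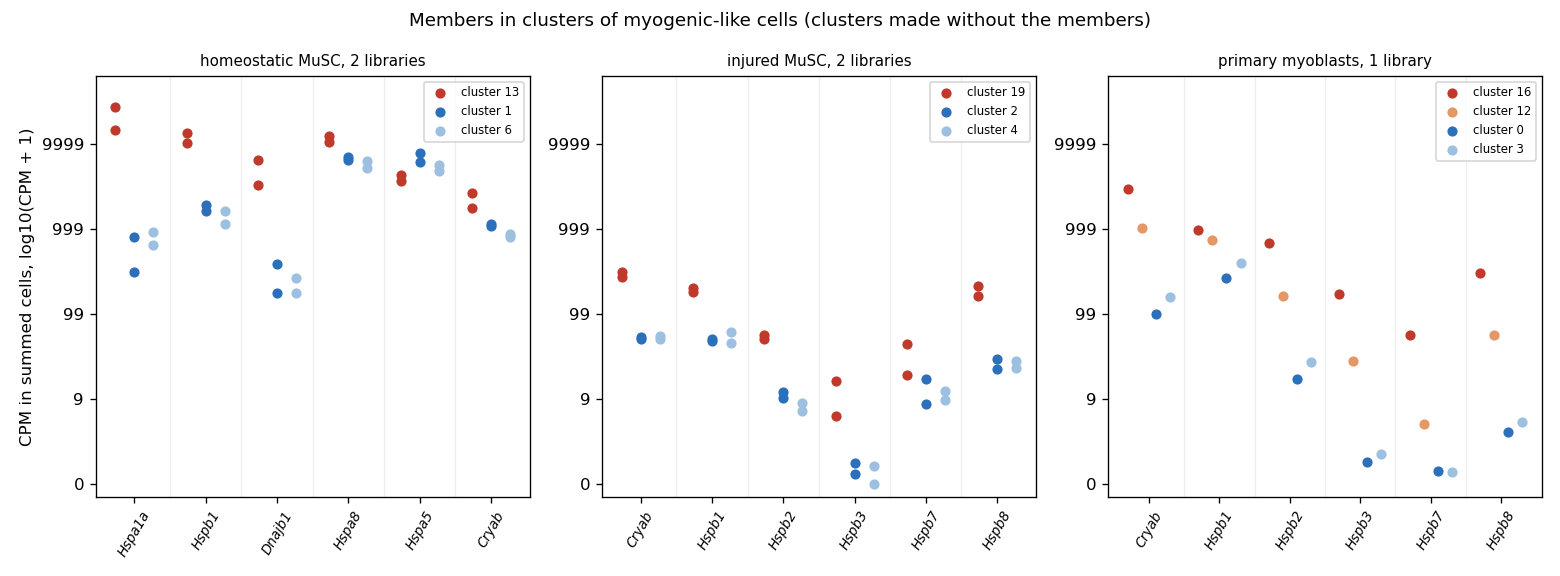
Members in the clusters of myogenic-like cells, as CPM of the cells summed by library and cluster (log10 axis), for homeostatic MuSCs, injured MuSCs and primary myoblasts. Red marks the homeostatic cluster with Egr1 and Fos among its top genes (Hspa1a at 27137 and 14509 CPM), and red and orange mark the injured and myoblast clusters with Myog among theirs, where the small heat shock proteins drawn are highest; blue marks the largest other clusters.

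Other cells of the injured libraries were lower in the inducible Hsp70 as well, in a comparison added after seeing the data. Macrophage- or monocyte-like cells numbered 28 and 35 in the injured libraries and 70 and 81 in total muscle, so the 2 sides also differ in how the cells were sorted. Of 39 members tested, 13 were lower in the injured libraries and 3 higher in edgeR's quasi-likelihood test, beside 15.8% and 15.7% of all genes, and the median was -0.81 (log2) beside -0.08 over all genes. Hspa1a had 2 and 0 UMIs in injured and 1311 and 1765 UMIs in total muscle libraries, a ratio 331-fold lower with a counting interval of 91.7 to 2738. Hspa1b had no UMI in injured and 210 and 205 UMIs in total muscle libraries, at least 29.8-fold lower at 3 counts over the injured libraries together. Hspb1 had 1 and 2 UMIs in injured and 352 and 150 UMIs in total muscle libraries, 36.1-fold lower with a counting interval of 12.3 to 175. With 1 library left out the log2 fold change of Hspb1 was between -4.38 and -5.97, against -5.21 with all, and that of Hspa1a was -7.55 without injured MuSC 2, against -8.33, while without injured MuSC 1 no injured UMI of it was left. In each of these genes the injured macrophage-like cells were at or near 0. Hspa8 had 721 and 444 CPM in injured and 3311 and 2958 CPM in total muscle libraries (log2 -2.43), and Hspa5 had 385 and 417 CPM and 1323 and 1481 CPM (log2 -1.84). Dnajb1 changed by -0.89 (log2) and was not called (adjusted p 0.05). DESeq2 called no member higher and 10 lower. Bag3 fell by 1.77 on the log2 scale and lost its call with DESeq2 and without injured MuSC 1.

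Tenocyte-like cells, defined by tendon markers, were too few for a test: 8 and 30 in injured, 8 and 8 in homeostatic and 148 and 185 in total muscle libraries. Hspa1a had no UMI in the injured ones, 38 and 13 UMIs in the homeostatic ones and 1491 and 2013 UMIs in total muscle, where its level was 1726 and 1882 CPM. The injured level was at least 42.5-fold lower than that of total muscle. Hspa8 had 749.6 and 836 CPM in injured, 5716 and 4464 CPM in homeostatic and 5179 and 4657 CPM in total muscle libraries, and Hspa5 had 375 and 489.5 CPM, 10272 and 6024 CPM and 3909.5 and 4765 CPM in the same order. The few tenocyte-like cells of the injured libraries were thus low in the same 3 genes as the myogenic-like cells beside them.

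**Figure D4:**
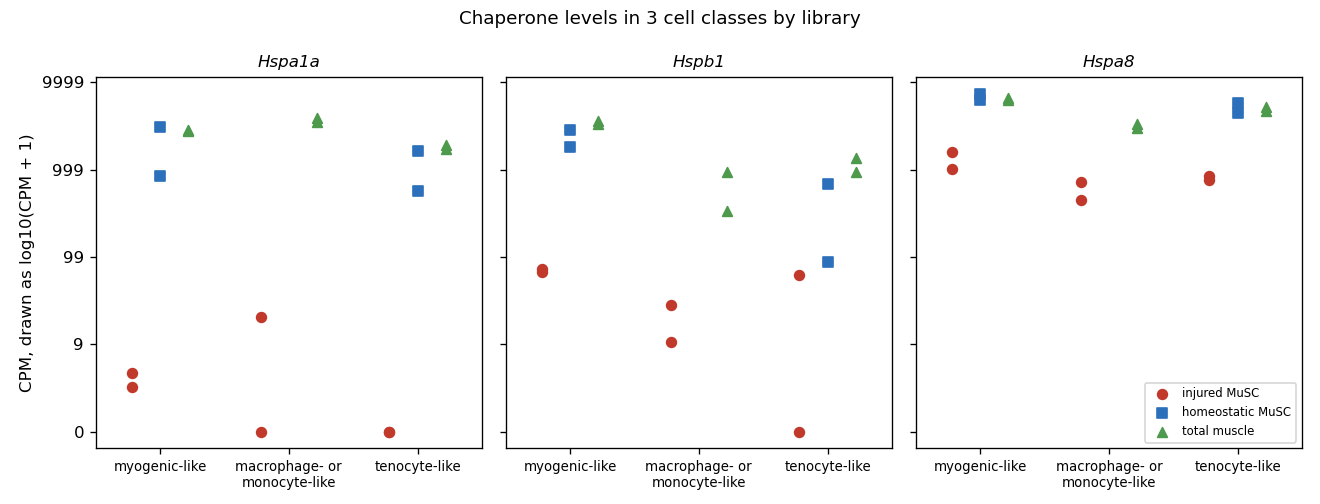
Hspa1a, Hspb1 and Hspa8 in myogenic-like, macrophage- or monocyte-like and tenocyte-like cells of each library, on a log10(CPM + 1) axis (scaled CPM in myogenic-like cells, CPM of the summed cells in the others). For Hspa1a, injured libraries lie below total muscle libraries in the 3 classes and below homeostatic libraries in the 2 classes drawn for them, with 2.21 and 3.68 CPM in myogenic-like cells and 19.2 and 0 CPM in macrophage- or monocyte-like cells.

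In the sort comparison homeostatic MuSCs were set against the few myogenic-like cells of total muscle, and members differed little. Besides the sort, only the labels of total muscle give an age, so the part of the sort cannot be told apart. The cluster with 83.5% and 84.4% of the total muscle cells held 27.3% and 33.3% of the homeostatic ones. Of 68 members tested 1 was higher in homeostatic MuSCs and 5 lower, beside 4.74% and 4.5% of all genes, with a median of -0.07 (log2) beside 0.04 over all genes. The split was 4 higher and 2 lower without TMM scaling, and 1 higher and 2 lower with DESeq2. Cryab was the 1 higher, with 1084 and 1127 CPM in homeostatic and 576 and 519 CPM in total muscle libraries (log2 fold change 0.94, SE 0.14, adjusted p 5.9e-05). Hspb1 was lower, with 2803 and 1789 CPM in homeostatic and 3617 and 3306 CPM in total muscle libraries (log2 fold change -0.67, SE 0.15, adjusted p 0.004). The 2 abundant small heat shock proteins therefore differed in opposite directions. The others were Cct5 (298 and 380.2 CPM in homeostatic and 561 and 510.2 CPM in total muscle, log2 -0.74), Cct8 (log2 -0.52), Dnajb9 (log2 -0.50) and Hspa2 (log2 -1.09). Hspa1a had 3060.3 and 833 CPM in homeostatic and 2725 and 2796 CPM in total muscle libraries and was not called (log2 -0.58, adjusted p 0.27). Homeostatic MuSC 2 lay below the other 3 libraries. Hspa5 and Hspa8 were not called either (log2 -0.20 and -0.01). With 91 and 128 cells in total muscle this comparison was the least settled: leaving out 1 library gave 1 to 8 members higher and 1 to 7 lower, and without the cluster with Egr1 and Fos 9 were higher and 7 lower. The calls of Cct8 and Dnajb9 were lost with DESeq2, without TMM scaling, with no filter on low counts, with 7 libraries in 1 fit, in marker-gated cells, in cells with at least 8 G or C in the barcode and in 3 of 4 fits that left out 1 library. Hspa2 lost its call with DESeq2, without TMM scaling, with the barcode filter and without total muscle 2 (log2 -0.47), and Hspb1 and Cct5 lost theirs without total muscle 1 (log2 -0.58 and -0.64). Of the outside lists, 1 of 28 co-chaperones was higher, none of 19 tested genes of the unfolded protein response was called (3 at an unadjusted p under 0.05) and 2 of 23 immediate early genes were lower.

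Cultured primary myoblasts held less inducible and ER chaperone RNA than homeostatic MuSCs, and more CCT, BAG and small heat shock protein RNA than injured MuSCs. Against injured MuSCs 36 of 79 tested members were higher and 14 lower in edgeR's fit of 5 libraries, beside 34.1% and 25.5% of all genes (median 0.42 log2, all genes 0.20). Against homeostatic MuSCs 27 were higher and 32 lower, beside 39.4% and 32.3% (median -0.06, all genes 0.18). The comparisons share the myoblast library, and the second shares its homeostatic libraries with the injury comparison. Without TMM scaling the all-gene medians moved to 0.90 and 0.56, with 60 members higher and 7 lower against injured and 33 higher and 26 lower against homeostatic MuSCs. DESeq2 gave 18 higher and 12 lower against injured MuSCs. Without scaling the DnaJA and DnaJB median against injured MuSCs turned from -0.48 to 0.22.

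Hspa1a had 0.654 CPM in myoblasts, 2.21 and 3.68 CPM in injured and 3060.3 and 833 CPM in homeostatic libraries (log2 -11.54 against homeostatic MuSCs, -2.13 against injured ones). The second difference lost its call with DESeq2, without TMM scaling and in marker-gated cells, while the first was -10.30 and -12.20 when homeostatic MuSC 1 or 2 was left out. A thinned myoblast held a UMI of Hspa1a in 0.0914% (95% interval 0.0249 to 0.234) of 4376 cells. Hspa5 had 430.3 CPM in myoblasts, 260.2 and 196 CPM in injured and 6927 and 5713 CPM in homeostatic libraries, so it was above injured MuSCs (log2 0.91) and below homeostatic ones (log2 -3.88). Hspa8, with 1169.8 CPM in myoblasts, was not called against injured MuSCs (log2 -0.15) and was lower than in homeostatic MuSCs (log2 -2.53). Of the Hsp70, Hsp110 and Hsp90 families 7 of 17 were higher and 3 lower than in injured MuSCs (3 and 2 with DESeq2, 12 and 1 without scaling), and 2 were higher and 11 lower than in homeostatic MuSCs. Hsph1 (log2 -3.18 against homeostatic MuSCs) and Bag3 (24.6 CPM in myoblasts, log2 -3.88) belonged to the inducible genes that were low in culture. Of 11 ER members 4 were higher and 4 lower than in injured MuSCs (2 and 4 with DESeq2, 6 and 0 without scaling), and 2 were higher and 8 lower than in homeostatic MuSCs. Of 9 mitochondrial members 3 were higher and 2 lower than in injured MuSCs (0 and 2 with DESeq2, 7 and 1 without scaling). Against homeostatic MuSCs 4 of them were higher and none lower (1 and 1 with DESeq2, 5 and 0 without scaling).

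Among DnaJA and DnaJB genes more were lower than higher in myoblasts against both sorted groups, but not without TMM scaling against injured MuSCs. Dnajb6 had 46.7 CPM in myoblasts, 228 and 207 CPM in injured and 342 and 356 CPM in homeostatic libraries (log2 -2.23 against injured and -2.91 against homeostatic MuSCs). Dnajb1 had 35.3 CPM in myoblasts, 143 and 139 CPM in injured and 881 and 276 CPM in homeostatic libraries (log2 -2.005 and -4.04), and its call against injured MuSCs was lost with DESeq2. Dnajb4 and Dnajb9 were lower than in injured MuSCs (log2 -1.38 and -1.04), and Dnajb9 lost its call without TMM scaling. In all, 6 of 14 were lower and 3 higher than in injured MuSCs (5 and 1 with DESeq2, 3 and 6 without scaling), and 10 were lower and 2 higher than in homeostatic MuSCs (10 and 0 with DESeq2).

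Of the CCT subunits 5 of 6, and of the BAG and Hsp70-binding genes 5 of 8, were higher than after injury and none was lower (3 and 4 with DESeq2, 6 and 8 without scaling). Cct5 had 375 CPM in myoblasts, 218 and 167 CPM in injured and 298 and 380.2 CPM in homeostatic libraries (log2 0.95 against injured and 0.14 against homeostatic MuSCs, the second not called). Cct3 had 298 CPM in myoblasts, 179 and 151 CPM in injured and 418 and 491 CPM in homeostatic libraries, above the injured and below the homeostatic level (log2 0.85 and -0.61). Against homeostatic MuSCs 2 CCT subunits were higher and 1 was lower, a balance that was 0 and 1 with DESeq2 and 4 and 0 without scaling. Bag2, an Hsp70 co-chaperone that inhibits CHIP, had 41.2 CPM in myoblasts, 9.54 and 8.84 CPM in injured and 8.49 and 8.54 CPM in homeostatic libraries (log2 2.15 and 2.27). Hspe1 had 851 CPM in myoblasts, below 1739.9 and 1566 CPM in injured libraries (log2 -0.96), and Hspd1 was not called in either comparison.

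Several DnaJC genes were higher in culture than in homeostatic MuSCs. Dnajc9 had 101 CPM in myoblasts and Dnajc15 had 136 CPM, both above homeostatic MuSCs (log2 4.29 and 3.14) and not called against injured MuSCs (log2 -0.13 and -0.15). Dnajc24 did the same (log2 2.47 and 0.05). Dnajc19 differed from them, with 63.9 CPM in myoblasts, 205 and 206 CPM in injured and 35.7 and 52.1 CPM in homeostatic libraries (log2 -1.69 against injured MuSCs). Over the class 10 of 24 were higher and 2 lower than in injured MuSCs, a count that moved with the method, to 1 and 2 with DESeq2 and 21 and 1 without scaling. Against homeostatic MuSCs 13 were higher and 6 lower (9 and 6 with DESeq2, 15 and 4 without scaling). Dnajc1, an ER member, was higher than in injured MuSCs (log2 1.30), with 44.6 CPM in myoblasts.

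Small heat shock proteins were higher in myoblasts than in injured MuSCs for 6 of 8 members and lower for 2 (median 1.70, log2), and higher than in homeostatic MuSCs for 5 and lower for 2. The median against homeostatic MuSCs was 2.53 as fitted and 2.49 with Hspb3 and Hspb7, which had no homeostatic count, at their bounds. Hspb1 had 278 CPM in myoblasts, 72.0 and 65.2 CPM in injured and 2803 and 1789 CPM in homeostatic libraries (log2 2.01 and -3.05). Cryab had 233 CPM in myoblasts, 72.0 and 80.3 CPM in injured and 1084 and 1127 CPM in homeostatic libraries (log2 1.605 and -2.25). Both lay between the injured and the homeostatic level. Hspb2 had 46.0 CPM in myoblasts (log2 1.79 and 3.59) and Hspb11 had 76.1 CPM (log2 1.10 and 2.66), above both sorted groups. Hspb3, a myogenic small heat shock protein, had 8.32 CPM in myoblasts, at least 18.9-fold higher than in homeostatic MuSCs, and was higher than in injured MuSCs too (log2 2.91). Hspb7, with 2.62 CPM, was lower than in injured MuSCs (log2 -2.52) and at least 5.94-fold higher than in homeostatic ones. Hspb8 was lower than in injured MuSCs (log2 -1.30).

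Of the 8 small heat shock proteins 6 stood higher in the clusters with the differentiation factor Myog among their top 10 genes than in the largest clusters. Cluster values are CPM without TMM scaling, unlike the levels given above for whole libraries. Among myoblasts the clusters with Myog among the top genes held 213 and 225 cells and the main ones 1502 and 2436 cells. In that order Cryab had 2973, 1029, 159 and 98.6 CPM, Hspb2 had 689, 163, 26.3 and 16.3 CPM and Hspb8 had 304, 55.9, 4.32 and 3.14 CPM. The cluster of 213 cells, which also has the sarcomere genes Mylpf and Acta1 among its top genes, was highest for all 3. Hspb3 and Hspb1 followed the same order, Hspb3 with 172, 26.9, 1.28 and 0.801 CPM, and Hspb1 with 983, 751, 402 and 268 CPM, while Hspb7 had 56.2, 4.13, 0.391 and 0.424 CPM, also highest in the cluster of 213 cells. Hspb6 and Hspb11 did not follow it, with 18.4, 12.4, 23.8 and 20.3 CPM and 63.4, 101, 103 and 105 CPM. The histone chaperone Dnajc9 ran the other way, with 29.7, 82.2, 147 and 142 CPM. Among injured MuSCs the cluster with Myog among its top genes (44 and 112 cells) had 269.7 and 313 CPM of Cryab and 164 and 216 CPM of Hspb8, against 49.8 and 53.1 CPM and 21.4 and 29.0 CPM in the largest injured cluster, though it held only 16.7% and 27.3% of the injured Cryab UMIs. Without these 3 clusters, an alternative chosen after seeing the data, Cryab was higher than in injured MuSCs by 0.53 (log2) in place of 1.60, Hspb2 by 0.47 with its call lost, and Hspb8 fell by 3.48 in place of 1.30. Marker-gated cells gave 0.74, 0.75 and -3.01 for the same genes. Against homeostatic MuSCs Cryab was then -3.61 and Hspb2 1.97 (log2). The counts of members called were 34 higher and 15 lower against injured and 25 higher and 33 lower against homeostatic MuSCs. Summed myofibre markers in these sums were 2025 CPM in myoblasts, 139 and 249 CPM in injured and 15.3 and 26.5 CPM in homeostatic libraries.

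Of the outside lists, 7 of 28 co-chaperones were higher and 10 lower in myoblasts than in injured MuSCs, and 10 higher and 9 lower than in homeostatic MuSCs. The unfolded protein response had 6 of 20 genes higher and 7 lower than in injured MuSCs, and 2 higher and 16 lower than in homeostatic MuSCs. Of 23 tested immediate early genes 6 were higher and 11 lower than in injured MuSCs, and 1 was higher and 21 lower than in homeostatic MuSCs.

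Across the cell types of uninjured muscle the members differed widely. In total muscle 9 types were gated on marker genes, with between 44 and 619 cells in a library, and summed per library. Of 69 members tested 65 (94.2%) differed among the types in edgeR's F test with the library as a block, beside 92.8% of all 8238 genes, so differing among types was no feature of the members. The 4 without a call were Dnajc5, Hspa4l, Bag4 and Dnajc13. Each type was then set against the mean of the other 8 types in the same fit. Unlike in the sorted libraries, all types of a library share 1 preparation. The 2 values printed for a type are those of total muscle 1 and 2.

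**Figure D5:**
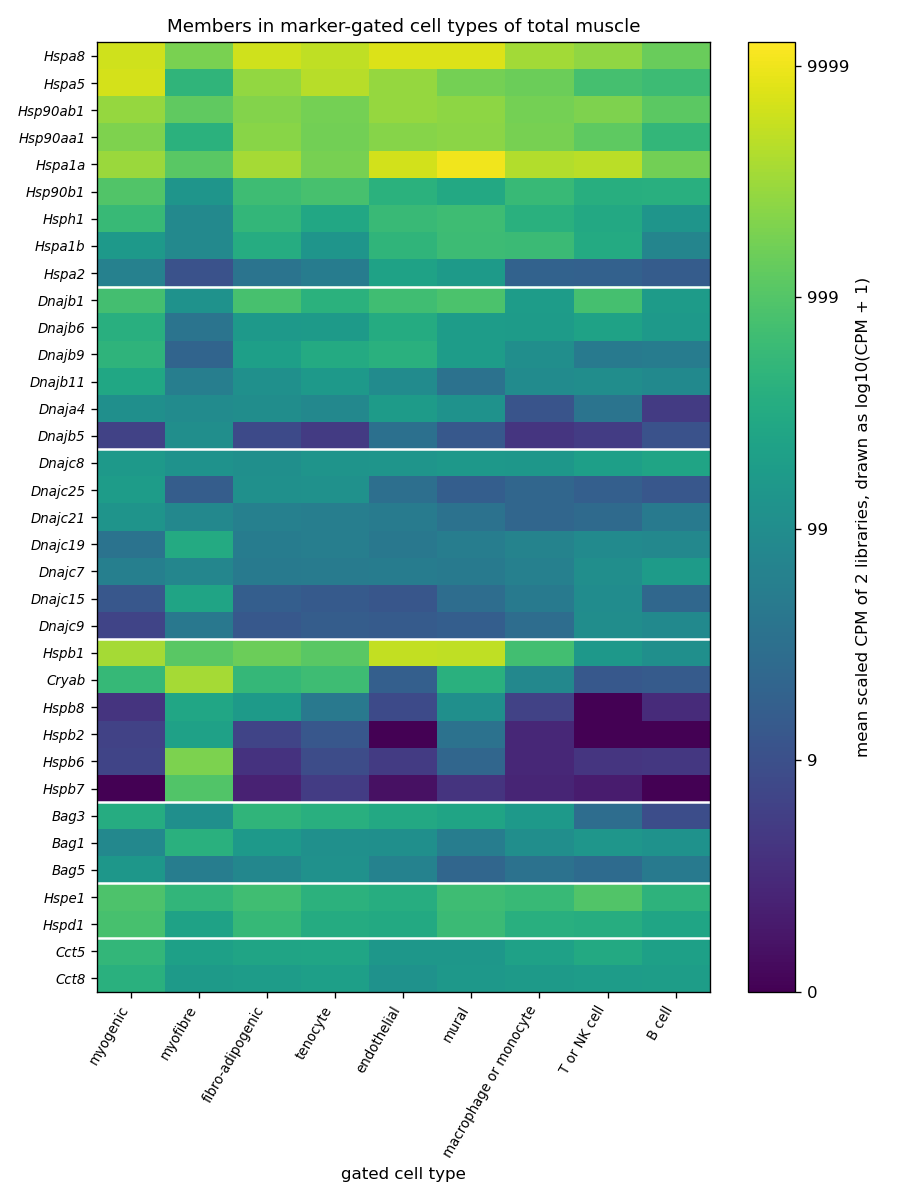
Mean scaled CPM of total muscle 1 and 2 for 35 members in the 9 marker-gated cell types, as a heat map with members in rows by role and types in columns. Bright cells are high and dark cells low. Hspb6 (1816 and 2067 CPM) and Hspb7 are brightest in myofibre cells, Hspa5 is brightest in myogenic cells (6382 and 7099 CPM) and Hspa1a is brightest in mural cells (12338 and 8015 CPM).

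UMIs of the inducible Hsp70 were found in every type of total muscle, and what part was free RNA in the droplets was not tested. Hspa1a was highest in mural cells (12338 and 8015 CPM), then in endothelial cells (7384 and 5910.0 CPM), T or NK cells (5092 and 4351 CPM) and macrophages or monocytes (4647 and 3872 CPM). Fibro-adipogenic cells (3263 and 3662 CPM) and myogenic cells (3211 and 2870.4 CPM) followed, and tenocytes (1699 and 1965 CPM), B cells (1947 and 1387 CPM) and myofibre cells (1025 and 1239 CPM) were lowest. Neighbours in this order whose 2 values overlap are T or NK cells with macrophages or monocytes and tenocytes with B cells. Hspa5 had another order. It was highest in myogenic cells (6382 and 7099 CPM), then in tenocytes (4197 and 4994 CPM), endothelial (2911 and 2647 CPM) and fibro-adipogenic cells (2611 and 2759.7 CPM), which overlap, and mural cells (1847 and 1628 CPM). Macrophages or monocytes (1473 and 1555 CPM), T or NK cells (931 and 622 CPM), B cells (674 and 605 CPM) and myofibre cells (530.0 and 439 CPM) followed, with the T or NK and B cell values overlapping.

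Myogenic cells had the most members above the other types: 33 were higher and 9 lower, beside 21.4% and 15.2% of all genes, with a median of 0.67 (log2) beside -0.14 over all genes. All 6 tested CCT subunits, both Hsp60 and Hsp10, 10 of 15 Hsp70, Hsp110 and Hsp90 genes and 6 of 13 DnaJA and DnaJB genes were higher. The 3 leading named members were the ER genes Dnajc25 (log2 2.71) and Hspa5 (2.2004), and Cryab (2.04). Dnajc9, Dnajc15 and Dnajc19, 3 of the 10 DnaJC genes called higher after injury, were lower than in the other types (log2 -2.19, -1.46 and -1.10). They were named for their large negative contrasts, and of 18 tested DnaJC genes 5 were higher and 6 lower in myogenic cells.

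Myofibre cells stood out by small heat shock proteins, of which 6 of 8 were higher and none lower, while 9 of 15 Hsp70, Hsp110 and Hsp90 genes were lower and none was higher. Over all members 17 were higher and 17 lower, beside 19.4% and 12.4% of all genes. Hspb6 (Hsp20), a relaxation-associated muscle protein, had 1816 and 2067 CPM in myofibre cells, against at most 24.8 CPM in a library of mural cells, the next type (log2 8.59). Hspb7 had 817 and 1094 CPM and Hspb2 had 261 and 178 CPM (log2 9.93 and 6.86). Cryab had 3727 and 3200.0 CPM in myofibre cells, 765 and 562 CPM in tenocytes, 639 and 479 CPM in myogenic cells and 12.9 and 15.1 CPM in B cells. Dnajb9, Dnajb6 and Hsph1 were lower in myofibre cells (log2 -3.03, -2.53 and -2.31).

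Vessel cells were highest in Hsp27 and the Hsp70 genes Hspa1a and Hspa8. Mural cells had 17 members higher and 6 lower, beside 17.1% and 5.43% of all genes, with 7 of 15 Hsp70, Hsp110 and Hsp90 genes and 4 of 8 small heat shock proteins higher. Hspb1 had 6517 and 3849.6 CPM in mural, 5522 and 4960.2 CPM in endothelial, 3727 and 3352 CPM in myogenic and 92.1 and 124 CPM in B cells (log2 2.51 for mural and 2.55 for endothelial cells). Hspb2 and Hspb8 were the other leading members of mural cells (log2 3.87 and 3.43), and Dnajb11, Bag5 and Bag1 were lower (log2 -1.71, -1.48 and -1.38). Endothelial cells had 20 members higher and 15 lower, beside 30.9% and 16.6% of all genes. Hspa2 led in endothelial cells (log2 2.87), with Hspb1 and Dnaja4 (1.91), while Cryab, Dnajc15 and Hspb6 were lower (log2 -3.68, -1.64 and -1.26). Hspa8 had 8122 and 6919 CPM in mural and 8065 and 7336 CPM in endothelial cells, against 1516 and 1359 CPM in B cells.

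Fibro-adipogenic cells, the mesenchymal progenitors of muscle, had 27 members higher and 8 lower, beside 31.6% and 12.4% of all genes. Hspb8 (log2 4.15), its partner Bag3 (2.05) and Cryab (1.99) led, and Hspb6, Dnajc9 and Dnajc15 were lower (log2 -1.81, -1.08 and -1.03). Hspb8 had 182 and 154 CPM and Bag3 had 489.7 and 486 CPM in these cells, against 0 and 0 CPM of Hspb8 in T or NK cells and 8.08 and 8.25 CPM of Bag3 in B cells. Tenocytes had 18 higher and 8 lower, beside 27.1% and 11.3% of all genes, with Cryab, Hspb2 and Hspb8 in front (log2 2.32, 2.173 and 1.997). Dnajb5, Dnajc15 and Hspa1a were lower in tenocytes (log2 -1.39, -1.27 and -0.96), and the call of Dnajb5 was lost at a gate of 5 UMIs and without the library block.

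Among immune cells, small heat shock proteins were lower for 2 of 8 members in B cells, 3 in T or NK cells and 2 in macrophages or monocytes, and higher for 1 in T or NK cells. B cells had 8 members higher and 25 lower, beside 24.8% and 20.5% of all genes (median -0.43, log2, beside -0.07), and 10 of 15 Hsp70, Hsp110 and Hsp90 genes were lower. The highest members of B cells by contrast were the DnaJC genes Dnajc9, Dnajc7 and Dnajc8 (log2 2.07, 1.57 and 0.76), and Bag3, Dnaja4 and Cryab were lowest (log2 -4.56, -3.98 and -3.89). T or NK cells had 14 higher and 15 lower, beside 20.1% and 17.3% of all genes, with Dnajc9, Dnajc15 and Dnajb1 in front (log2 2.33, 1.89 and 1.03). Hspb8 had no count in T or NK cells, and Cryab and Hspb1 were lower (log2 -4.13 and -3.18). Macrophages or monocytes had 5 higher and 8 lower, beside 19.0% and 7.83% of all genes. Hspa1b, Hspa1a and Hsp90aa1 were higher there (log2 1.54, 0.40 and 0.39), and Dnaja4, Dnajb1 and Dnajc21 were lower (log2 -2.59, -1.38 and -1.33). Leaving out 1 library gives these contrasts as values on a log2(CPM + 1) scale with no test, and Bag5 in mural cells ranged between -3.14 and -0.65 and Dnaja4 in B cells between -6.17 and -2.96 on it.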

How the data were processed

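The authors deposited unnormalized UMI counts, 1 for every gene in every barcode. The submitters' processing notes name Cell Ranger 2.2.0, bcl2fastq 2.17.1, mm10 and Seurat 2.3.4, with roles not given in the sources used here. Members and gene lists were chosen with earlier results of these data known. Cells with at least 200 genes and at most 10% mitochondrial UMIs were kept. Scrublet (scikit-image 0.26.0) called 57 of 15267 cells doublets (0.373%), too few to count as working, and they were left out. Cells were clustered without the member genes in scanpy 1.11.5 and leidenalg 0.10.2 (2000 variable genes, 30 components, 20 neighbours, resolution 1) and clusters were named from marker lists, with 2 of 24 unnamed. Names rebuilt from clusters may differ from the submitters' own. For each library the counts of its myogenic-like cells were added up and tested over all genes with edgeR 4.0.16 in R 4.3.3 (TMM, filterByExpr, quasi-likelihood, Benjamini-Hochberg adjusted p under 0.05). Biological coefficients of variation were 11.7% for injury, 14.6% for the sort and 11.8% for the myoblast fits. Cells of total muscle were gated at 3 UMIs of at least 2 markers. Named members were the 4 most abundant of each role and the 6 largest called rises and falls of a comparison with at least 20 CPM; others were named after their values were seen. DESeq2 1.42.0 was an alternative, and copies were sought with blastn 2.17.0.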

Additional observations from a re-analysis of the deposited data

How the results depend on the processing

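The injury comparison kept its counts, with 17 to 19 members higher and 37 to 40 lower when 1 library was left out, and the myoblast comparison with homeostatic MuSCs gave 24 to 25 higher and 30 to 31 lower. Settings that moved a count by over 1.5 times, or turned a direction, were found mainly in the sort comparison, where total muscle gives 91 and 128 cells. Its count of higher members, 1, was 4 without TMM scaling, 6 with no filter on low counts, 5 with the replicate block, 2 in marker-gated cells, 42 with all cells, 2 with 7 libraries in 1 fit and 9 without the cluster led by Egr1 and Fos, and 1 to 8 with 1 library left out. Its count of lower members, 5, was 2 with DESeq2, 2 without scaling, 12 with the replicate block, 3 in marker-gated cells, 14 with all cells, 3 with 7 libraries and 2 in cells with at least 8 G or C in the barcode, and 1 to 7 with 1 library left out. With all cells, which in total muscle are mostly of other types, the directions of Cct5 (0.70), Cct8 (0.89), Dnajb9 (0.92), Hspa5 (1.48) and Hspb1 (0.49) turned (log2).

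Members higher in myoblasts than in injured MuSCs, 36, were 18 with DESeq2 and 60 without scaling, and 26 to 28 with 1 library left out; those lower, 14, were 7 without scaling. In macrophage- or monocyte-like cells the 3 higher members were 0 with DESeq2 and 0 to 1 with 1 library left out, and the 13 lower were 10 to 16. Thinned to 500 UMIs, the share of cells with Hspa1a was 0% in injured MuSC 1, 28.0% and 13.7% in homeostatic and 16.5% and 14.8% in total muscle libraries. Among values of single members and other values without a count, 44 lost and 10 gained a call while 1381 kept theirs. Where no value above shows it, the cause was not tested. Replicate numbers are not known to pair the libraries. Deviations of same-numbered libraries correlated at -0.02, -0.02 and -0.004 over 11972 genes, which cannot exclude a shared animal or run. The block moved the injury counts to 21 higher and 38 lower. Shallow homeostatic cells and the lone myoblast library limit what can be resolved.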
